A study of Mus musculus with 4 samples.

Results

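The transcripts of p53 and of 9 of its target genes for growth arrest and feedback were followed in mouse macrophage-like cells kept with a proteasome inhibitor. The 10 genes, *Trp53*, *Cdkn1a*, *Mdm2*, *Ccng1*, *Sesn1*, *Gadd45a*, *Trp53inp1*, *Phlda3*, *Btg2* and *Plk2*, were taken by their symbols from a list of names, with no threshold on a measured value. This list, and those set beside it below, were chosen with earlier results of these data known. The 10 genes were represented by 12 of 39429 probes and stood among 20133 genes that could be named. J774 cells, an established mouse monocyte-macrophage line, were kept for 4 hours in 1 μM of one of 3 compounds that block the proteasome, while control cells received DMSO, their solvent. The paper describes MG132 as inhibiting chymotrypsin and epoxomicin as inhibiting the proteasome core. It describes ONX0914 as directed at the β5 subunit and its immunoproteasome counterpart β5i. Each condition had 1 RNA sample on 1 single-color array, and all 4 arrays lay on 1 slide. For one sample the title gives only ONX and the treatment field gives ONX-0912, but the protocol and the paper have ONX0914, which is the name used here. No allele, knockdown or damaging agent distinguished the cultures.

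The p53 protein is a transcription factor that is normally short-lived, because the ubiquitin ligase Mdm2 marks it for degradation by the proteasome. *Mdm2* is itself a p53 target, which closes a negative feedback loop. When p53 accumulates, it binds paired copies of a short consensus sequence and raises the transcription of genes that halt the cell cycle, among which *Cdkn1a* encodes the p21 inhibitor of cyclin-dependent kinases. Several of these genes are also transcribed in response to other stresses, independently of p53. The arrays measured RNA alone, and neither the p53 protein nor its binding to DNA was measured.

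A signal here is the brightness of a spot less its background, as deposited from the scanner software. To set arrays side by side, signals were put on the log2 scale and shifted by each array's 75th percentile. That percentile was a signal of 1654 under DMSO, 1453 under MG132, 1683 under epoxomicin and 1612 under ONX0914. A difference below is between values scaled in this way, whereas the signals are given as deposited. Higher or lower in a count means a difference of at least 2-fold, which is 1 on the log2 scale. With 1 array per condition there was no spread between cultures, so no difference has a replicate check and no P value is given. Where a probe was printed repeatedly, the SD between its spots was at most 0.0613 in the median on the log2 scale, so that a difference between a pair of spots of 0.0867 (that SD times the square root of 2) covers printing and reading only. In RNA of a whole culture, fewer cells of a type and less RNA per cell cannot be told apart. Of 10 macrophage markers, 9 had a named probe and all 9 were well above background on every array, including *Csf1r*, with signals between 165950 and 210824. Of these 9, *Mertk* was 1.04 higher than DMSO with MG132 and *Lyz2* lay at −1.01 with epoxomicin on the log2 scale, and all other differences were under 2-fold. *Mertk* was faint (a signal of 50.9 under DMSO), fell below 2-fold in 5 of 10 alternative settings and turned to −0.63 with normexp on all spots, and *Lyz2* fell below 2-fold in 2. Of 10 markers of other cells, 6 were well above background on no array, among them *Epcam*, *Col1a1* and *Alb*. The remaining 4 were detected, with signals of 151632 to 177625 for *Siglech*, a gene of plasmacytoid dendritic cells, 604 to 849 for *Cd3e*, 140 to 191 for *Pecam1* and 122 to 161 for *Krt5*. A second *Siglech* probe disagreed, as it was well above background on 1 of the 4 arrays only. None of these 4 differed 2-fold from DMSO with any inhibitor. The cultures were of an established cell line, and the source of these signals was not tested.

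Most of the p53 target genes were higher with each inhibitor, while *Trp53* stayed within 0.18 of DMSO and *Sesn1* was lower. With MG132, 7 of the 10 genes were higher than DMSO by 2-fold or more and 1 was lower, against 7.24% of 13768 genes higher and 3.65% lower (8 of 10 against 10.9% in either direction). With epoxomicin the counts were again 7 and 1, against 8.41% of 13869 genes higher and 4.49% lower (12.9% in either direction). With ONX0914, 6 genes were higher and 1 was lower, against 3.27% of 13792 genes higher and 1.41% lower (7 of 10 against 4.68% in either direction). The median log2 difference of the 10 genes was 1.91 under MG132, 2.09 under epoxomicin and 1.19 under ONX0914, while the medians of all genes were −0.02, −0.04 and −0.01. All these comparisons share the DMSO array, so any error of that array enters each of them. The 10 genes were well above background on all arrays, and none of their spots was saturated or marked as an outlier.

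**Figure D1:**
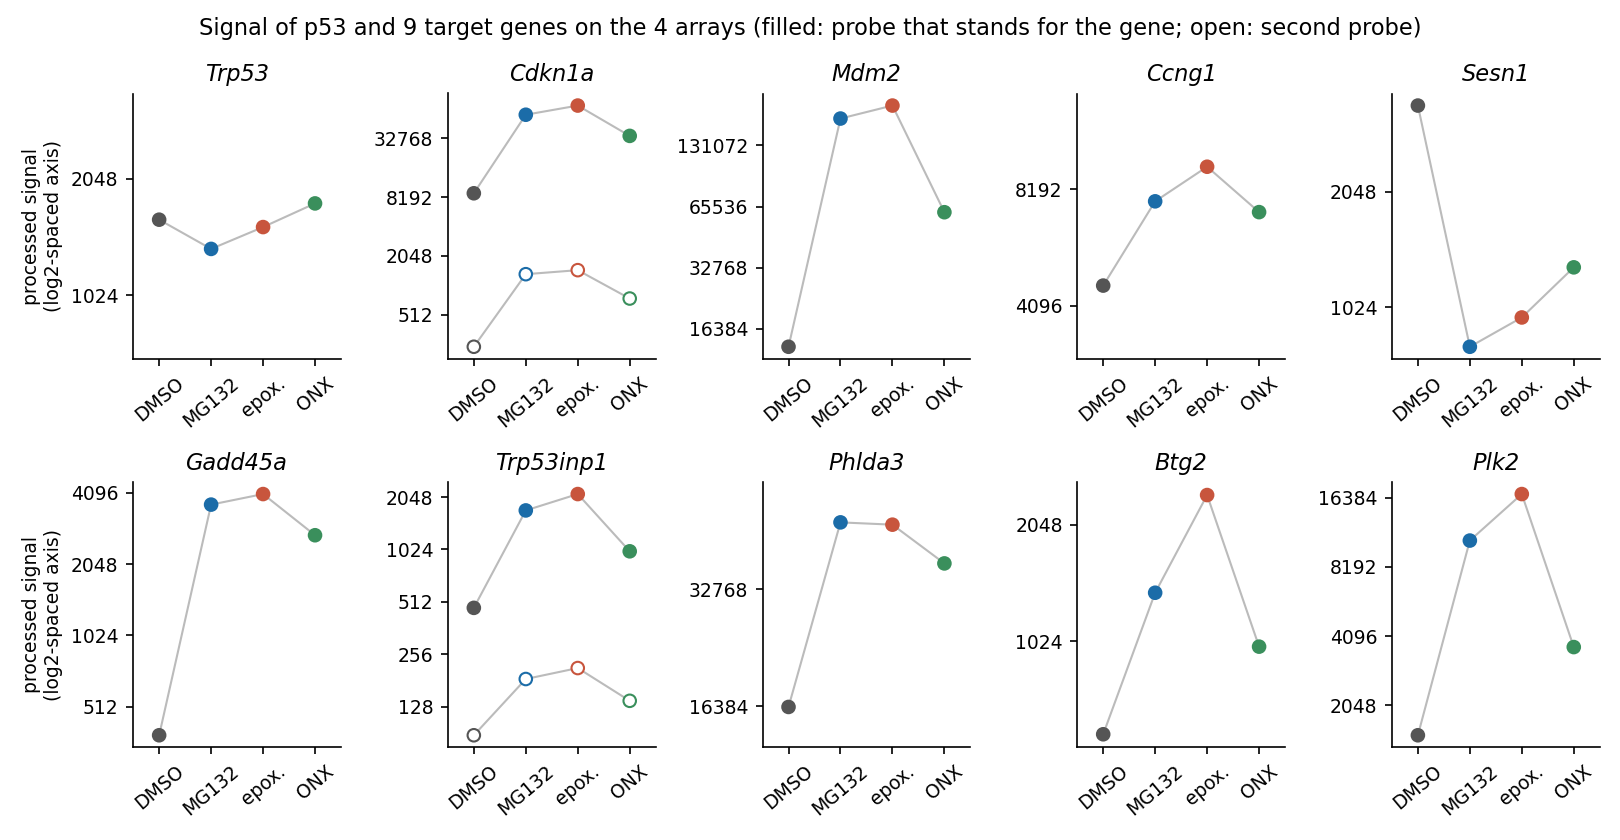
Deposited signal of p53 and 9 target genes on each of the 4 arrays (log2-spaced axis, each panel on its own scale), with open points for a second probe. Each point is the single array of a condition (epox., epoxomicin; ONX, ONX0914), with the ONX0914 point between DMSO and the other inhibitors for every gene but *Trp53*.

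*Trp53*, which encodes p53 itself, lay close to DMSO on every inhibitor array. Its signal was 1607 under DMSO, 1351 under MG132, 1538 under epoxomicin and 1770 under ONX0914. The ONX0914 array was the highest and the MG132 array the lowest before scaling. After scaling, the log2 difference from DMSO was −0.06 under MG132, −0.09 under epoxomicin and 0.18 under ONX0914. The MG132 value lay within the spot spread of 0.0867, which 84.8% of all genes exceeded. The other differences of the 10 genes from DMSO all exceeded it. In the ranking of all genes from the highest difference down, *Trp53* stood at 7446 under MG132, 7424 under epoxomicin and 3701 under ONX0914.

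*Mdm2*, the ligase of the feedback loop, had the largest increase of the 10 genes with MG132 and with epoxomicin. Its signal was 13352 under DMSO, 177796 under MG132, 206014 under epoxomicin and 61435 under ONX0914. Every inhibitor array was far brighter than the DMSO array, and the ONX0914 array was the dimmest of the treated ones. The log2 difference from DMSO was 3.92 (15.2-fold) under both MG132 and epoxomicin and 2.24 (4.72-fold) under ONX0914. These increases ranked 33, 56 and 85 among all genes compared with MG132, epoxomicin and ONX0914.

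*Cdkn1a*, whose product p21 blocks cyclin-dependent kinases, was the only one of the 10 genes with a probe printed 10 times. The spots of that probe (NM_007669) gave a signal of 8962 ± 361 (SD, n = 10 spots) under DMSO and 57082 ± 1573 under MG132. The same 10 spots gave 70870.5 ± 1735 under epoxomicin and 34677 ± 1200.5 under ONX0914. The spots of the arrays did not overlap, as the highest DMSO spot was 9641 and the lowest ONX0914 spot 32286, and the lowest MG132 spot was 54907. Over all genes, 84.8%, 86.1% and 75.9% differed from DMSO by more than the spot spread of 0.0867 with MG132, epoxomicin and ONX0914. For *Cdkn1a*, the log2 difference from DMSO was 2.86 ± 0.0222 (7.25-fold) under MG132, 2.96 ± 0.0215 (7.78-fold) under epoxomicin and 1.99 ± 0.0242 (3.97-fold) under ONX0914. The error is the SE over spots and leaves out the spread between cultures. The other probe (NM_001111099) gave signals of 240 under DMSO, 1329 under MG132, 1462 under epoxomicin and 749 under ONX0914. Its differences, 2.66, 2.58 and 1.68 on the log2 scale, had the same direction, and epoxomicin was then slightly below MG132. Among 12730 genes well above background on all arrays, those with the differences closest to *Cdkn1a* over the 3 inhibitors included *Zfp420* and *Oasl2*, at Euclidean distances of 0.116 and 0.136 on the log2 scale.

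The start regions of these genes were read from RefSeq promoter windows of GRCm38.p6, each with 250 bases before and 50 after a transcription start. A window was found for 9 of the 10 genes (all but *Trp53inp1*), 11 windows in all. The p53 consensus half-site has 10 letters and reads the same on both strands. A half-site occurred in 6 of the 11 windows, those of *Trp53*, *Mdm2*, *Ccng1* and *Gadd45a*, 1 of *Cdkn1a* and 1 of *Sesn1*, and in 8.356% of 32851 windows of all genes. A full site, searched for after the windows had been seen, was taken as a pair of half-sites side by side with at most 1 mismatch over 20 letters, so it overlaps the half-sites within it. It occurred in 29 windows of all genes (0.08828%) and in 2 of the 11, 1 of *Cdkn1a* and that of *Ccng1*. It began at position −51 from the upstream of the 2 *Cdkn1a* starts and at −195 from the *Ccng1* start. The window at the other *Cdkn1a* start held neither a half-site nor a full site. The windows of *Cdkn1a* at its pair of starts, and that of *Ccng1*, are shown because they differ in this respect, 5′ to 3′ on the gene's strand. Capitals mark p53 half-sites and full sites, and in the second *Cdkn1a* window the letters TGACNNNGC on the opposite strand, the core of an antioxidant response element, which was searched on both strands and occurred in 2 of the 11 windows (that of *Trp53* as well) and in 12.39% of all windows.
Cdkn1a, chr17:29090729-29091028, plus strand: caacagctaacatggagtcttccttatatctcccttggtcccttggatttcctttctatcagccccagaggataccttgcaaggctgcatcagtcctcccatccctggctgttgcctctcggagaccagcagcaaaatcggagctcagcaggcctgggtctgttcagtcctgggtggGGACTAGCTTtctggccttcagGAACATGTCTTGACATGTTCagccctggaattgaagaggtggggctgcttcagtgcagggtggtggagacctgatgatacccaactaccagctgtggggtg
Cdkn1a, chr17:29093519-29093818, plus strand: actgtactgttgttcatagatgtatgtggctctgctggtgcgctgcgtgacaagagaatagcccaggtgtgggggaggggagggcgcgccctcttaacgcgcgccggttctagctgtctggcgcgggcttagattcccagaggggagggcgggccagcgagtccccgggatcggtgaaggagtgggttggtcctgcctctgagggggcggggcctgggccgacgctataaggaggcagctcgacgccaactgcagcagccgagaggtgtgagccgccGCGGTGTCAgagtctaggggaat
Ccng1, chr11:40755237-40755536, minus strand: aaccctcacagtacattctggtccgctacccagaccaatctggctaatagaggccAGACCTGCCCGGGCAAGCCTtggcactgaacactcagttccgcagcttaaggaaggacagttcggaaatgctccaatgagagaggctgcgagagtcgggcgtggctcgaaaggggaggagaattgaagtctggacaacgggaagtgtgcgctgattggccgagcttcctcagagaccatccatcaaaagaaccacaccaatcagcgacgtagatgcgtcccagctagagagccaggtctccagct
A match of letters describes the window and is not a measured binding site, and a window without a match says only that these letters are absent from it.

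*Ccng1* encodes cyclin G1, a p53 target that takes part in feedback on p53. Its signal was 4617 under DMSO, 7618 under MG132, 9357 under epoxomicin and 7144 under ONX0914. All inhibitor arrays were above DMSO, but none by 2-fold. The log2 difference was 0.91 under MG132, 0.99 under epoxomicin and 0.67 under ONX0914, and the epoxomicin value was the closest below the threshold of any of the 10 genes. The window of *Ccng1* held a full-site match, and those of *Mdm2* and *Gadd45a* held a half-site only. Sites outside the windows were not searched, and a link between these letters and the differences was not tested. The *Mdm2* window is shown for comparison, with its half-site at position −186 in capitals.
Mdm2, chr10:117710709-117711008, minus strand: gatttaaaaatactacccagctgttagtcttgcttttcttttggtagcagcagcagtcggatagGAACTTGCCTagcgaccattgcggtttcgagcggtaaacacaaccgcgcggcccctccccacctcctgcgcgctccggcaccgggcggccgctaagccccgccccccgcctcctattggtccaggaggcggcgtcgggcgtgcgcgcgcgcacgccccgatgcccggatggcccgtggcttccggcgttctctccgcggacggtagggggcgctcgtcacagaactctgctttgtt

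*Gadd45a*, which encodes a small stress protein of growth arrest and DNA damage, had a signal of 387 under DMSO, 3651 under MG132, 4045 under epoxomicin and 2710 under ONX0914. The DMSO array was the lowest by a wide margin. The log2 difference from DMSO was 3.42 (10.7-fold) under MG132, 3.36 (10.3-fold) under epoxomicin and 2.84 (7.18-fold) under ONX0914. With ONX0914 this was the largest difference of the 10 genes, at rank 39 of all genes compared.

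*Plk2*, a polo-like kinase induced by stress, had a signal of 1515 under DMSO, 10660 under MG132, 16988 under epoxomicin and 3666 under ONX0914. The inhibitors were spread more widely than for any other of the 10 genes. The log2 difference from DMSO was 3.00 (8.01-fold) under MG132, 3.46 (11.0-fold) under epoxomicin and 1.31 (2.48-fold) under ONX0914. *Btg2*, an antiproliferative regulator of transcription and mRNA decay, had a signal of 589 under DMSO, 1367 under MG132, 2443 under epoxomicin and 992 under ONX0914. Here too epoxomicin was the highest and ONX0914 the lowest of the inhibitors. The log2 difference from DMSO was 1.40 (2.64-fold) under MG132 and 2.03 (4.07-fold) under epoxomicin. With ONX0914 it was 0.79 (1.73-fold), below the threshold. The windows of *Plk2* and *Btg2* were the 2 of 11 with the letters TGACGTCA, the cAMP response element, which reads the same on both strands and occurred in 1.79% of all windows. Both are shown with these letters in capitals, and neither held a p53 half-site.
Plk2, chr13:110394794-110395093, plus strand: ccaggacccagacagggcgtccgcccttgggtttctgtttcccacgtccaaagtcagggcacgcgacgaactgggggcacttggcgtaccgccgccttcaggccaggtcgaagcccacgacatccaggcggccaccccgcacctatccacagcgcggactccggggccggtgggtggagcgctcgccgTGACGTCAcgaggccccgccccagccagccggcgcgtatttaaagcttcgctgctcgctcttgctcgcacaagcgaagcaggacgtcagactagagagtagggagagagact
Btg2, chr1:134079106-134079405, minus strand: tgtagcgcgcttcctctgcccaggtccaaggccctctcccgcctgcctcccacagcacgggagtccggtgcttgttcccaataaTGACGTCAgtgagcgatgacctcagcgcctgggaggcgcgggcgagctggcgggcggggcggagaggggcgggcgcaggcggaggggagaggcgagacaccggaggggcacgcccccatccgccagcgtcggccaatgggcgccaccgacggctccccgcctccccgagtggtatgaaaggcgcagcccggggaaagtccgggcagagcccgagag
The element began at position −62 in *Plk2* and at −166 in *Btg2*. Also searched were TATAAA, on the gene's strand only, and TGATGNAA, on both strands, which occurred in none of the 11 windows and in 8.319% and 3.969% of all windows. The letters GAANNTTC, the core of a heat-shock element that reads the same on both strands, occurred in 1 window of *Sesn1* and in 7.86% of all windows. The 11 windows had a median GC content of 64.67%, against 52.67% for all windows.

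*Phlda3*, whose product has a pleckstrin homology domain and restrains Akt, had a signal of 16294 under DMSO, 48805 under MG132, 48142 under epoxomicin and 38241 under ONX0914. The treated arrays lay close together and above DMSO. The log2 difference was 1.77 (3.41-fold) under MG132, 1.54 (2.90-fold) under epoxomicin and 1.27 (2.41-fold) under ONX0914. *Trp53inp1*, which encodes a stress-induced nuclear protein that interacts with p53, had a signal of 473 under DMSO, 1716 under MG132, 2131 under epoxomicin and 999 under ONX0914. The order of the arrays was that of *Mdm2*. The log2 difference was 2.05 (4.13-fold) under MG132, 2.15 (4.43-fold) under epoxomicin and 1.12 (2.17-fold) under ONX0914, which was the smallest increase past the threshold among the 10 genes. Its other probe gave signals of 87.8 under DMSO and 185, 213 and 138 under MG132, epoxomicin and ONX0914. That probe gave smaller differences of 1.26, 1.26 and 0.69, so the increase with ONX0914 passed 2-fold on 1 of the 2 probes.

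*Sesn1*, which encodes a stress-induced sestrin that restrains mTORC1, ran the other way. Its signal was 3427 under DMSO, 809 under MG132, 964 under epoxomicin and 1301 under ONX0914. The DMSO array was the highest and the MG132 array the lowest. The log2 difference from DMSO was −1.90 (3.72-fold lower) under MG132, −1.86 (3.62-fold lower) under epoxomicin and −1.36 (2.57-fold lower) under ONX0914. With MG132 it was the 65th lowest of 13768 genes. The genes with the closest differences were *Rab3a* at a Euclidean distance of 0.0365, *Maf* at 0.117 and *Ppargc1b* at 0.176.

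**Figure D2:**
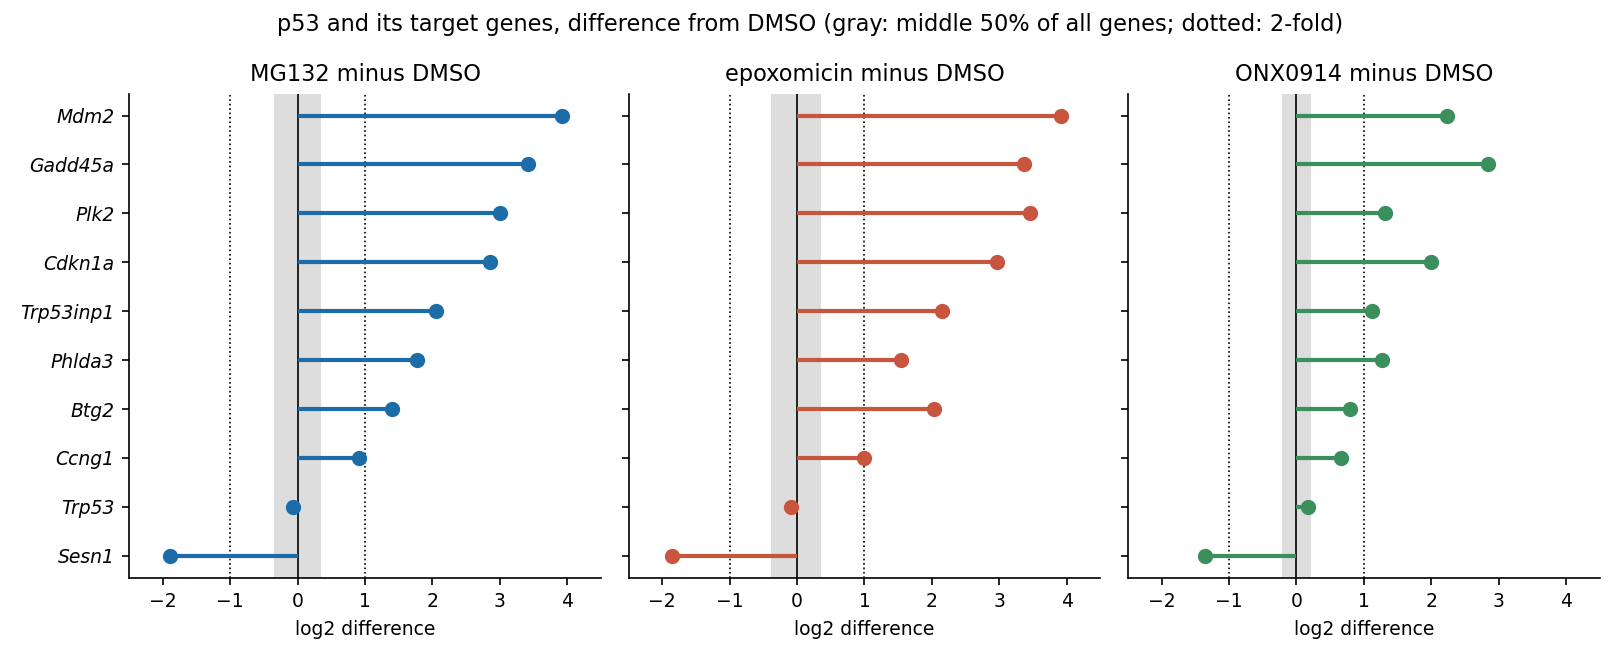
Log2 difference from DMSO of p53 and its target genes, in 1 panel per inhibitor, with dotted lines at 2-fold and a gray band over the middle 50% of all genes. *Mdm2* reached 3.92 with MG132 and with epoxomicin, *Sesn1* lay below −1 with all inhibitors, and *Trp53* lay near 0.

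**Figure D3:**
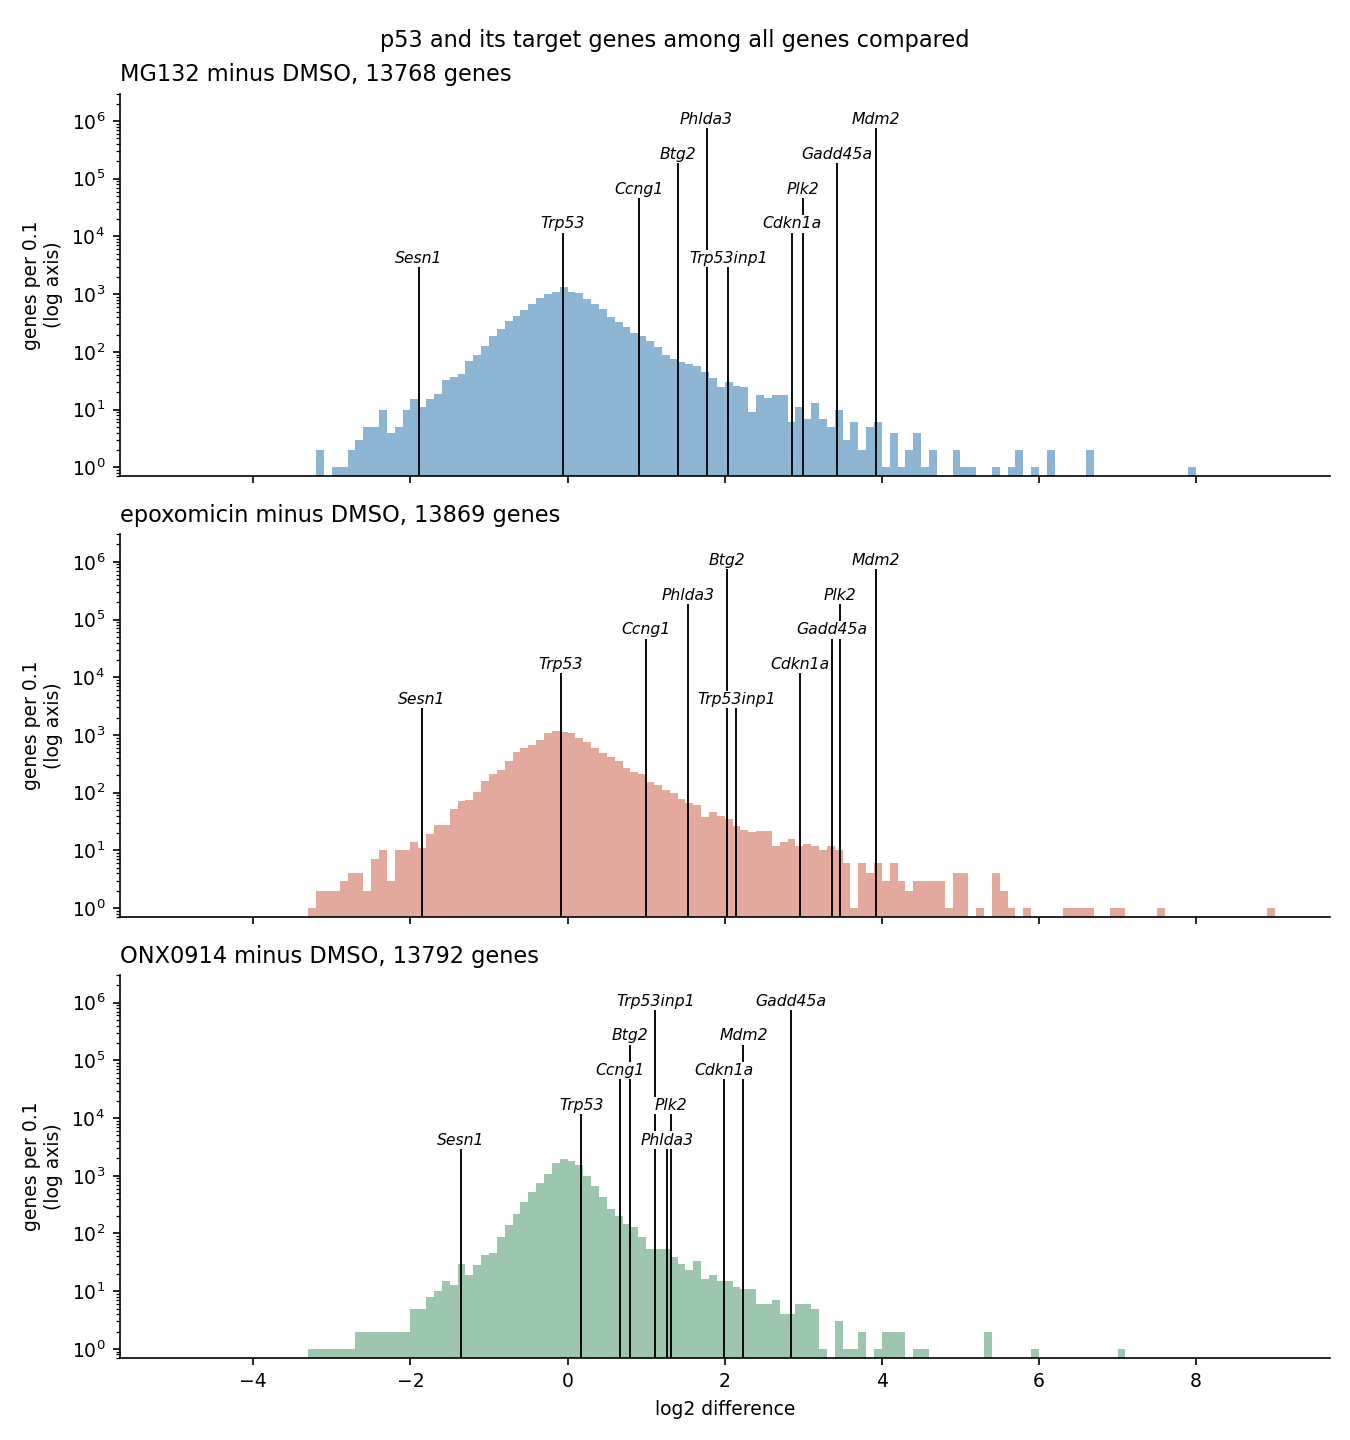
Number of genes (log axis) by log2 difference from DMSO in steps of 0.1, for each inhibitor, with p53 and its target genes marked by vertical lines. *Mdm2* and *Gadd45a* lie in the upper tail, *Sesn1* in the lower tail and *Trp53* near the middle.

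The inhibitors were next compared with each other, at the same dose and time and without the DMSO array. Between epoxomicin and MG132 none of the 10 genes differed 2-fold, against 0.785% of 13626 genes higher with epoxomicin and 0.719% lower (1.5% in either direction). *Btg2* was 0.63 higher on the log2 scale with epoxomicin (1.54-fold), and *Plk2* was 0.46 higher (1.38-fold). The other 8 genes lay between −0.23 for *Phlda3* and 0.10 for *Cdkn1a* and *Trp53inp1*. For 5 of the 10 genes, including *Mdm2* at 0.00, the difference lay within the spot spread of 0.0867.

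Between ONX0914 and MG132, 2 of the 10 genes were lower with ONX0914 and none was higher, against 3.05% of 13704 genes lower and 1.07% higher (4.12% in either direction). They were *Plk2*, at −1.69 on the log2 scale (3.23-fold lower), and *Mdm2*, at −1.68 (3.21-fold lower). *Cdkn1a* differed by −0.87 ± 0.0202 (SE over 10 spots), short of 2-fold. Between ONX0914 and epoxomicin, 4 of the 10 genes were lower and none was higher, against 4.38% of 13791 genes lower and 1.56% higher (5.94% in either direction). *Plk2* had the widest gap, at −2.15 (4.44-fold lower), followed by *Mdm2* at −1.68 (3.21-fold lower). *Btg2* at −1.24 (2.36-fold lower) and *Trp53inp1* at −1.03 (2.04-fold lower) were the others, and the count was 3 to 5 over 10 alternative settings. *Gadd45a* stood closer, at −0.52 against epoxomicin and −0.58 against MG132. *Sesn1*, lower than DMSO with every inhibitor, was higher with ONX0914 than with MG132 by 0.54 and than with epoxomicin by 0.49. The scaled level with ONX0914 lay between DMSO and both other inhibitors for 9 of the 10 genes, as it did for 6563 of 12730 genes (51.6%), and *Trp53* was the exception. That share includes genes that hardly differed from DMSO, and it was not taken among genes that differed as strongly as these. Over all genes compared with DMSO, fewer passed 2-fold with ONX0914 (4.68%) than with MG132 (10.9%) or epoxomicin (12.9%).

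**Figure D4:**
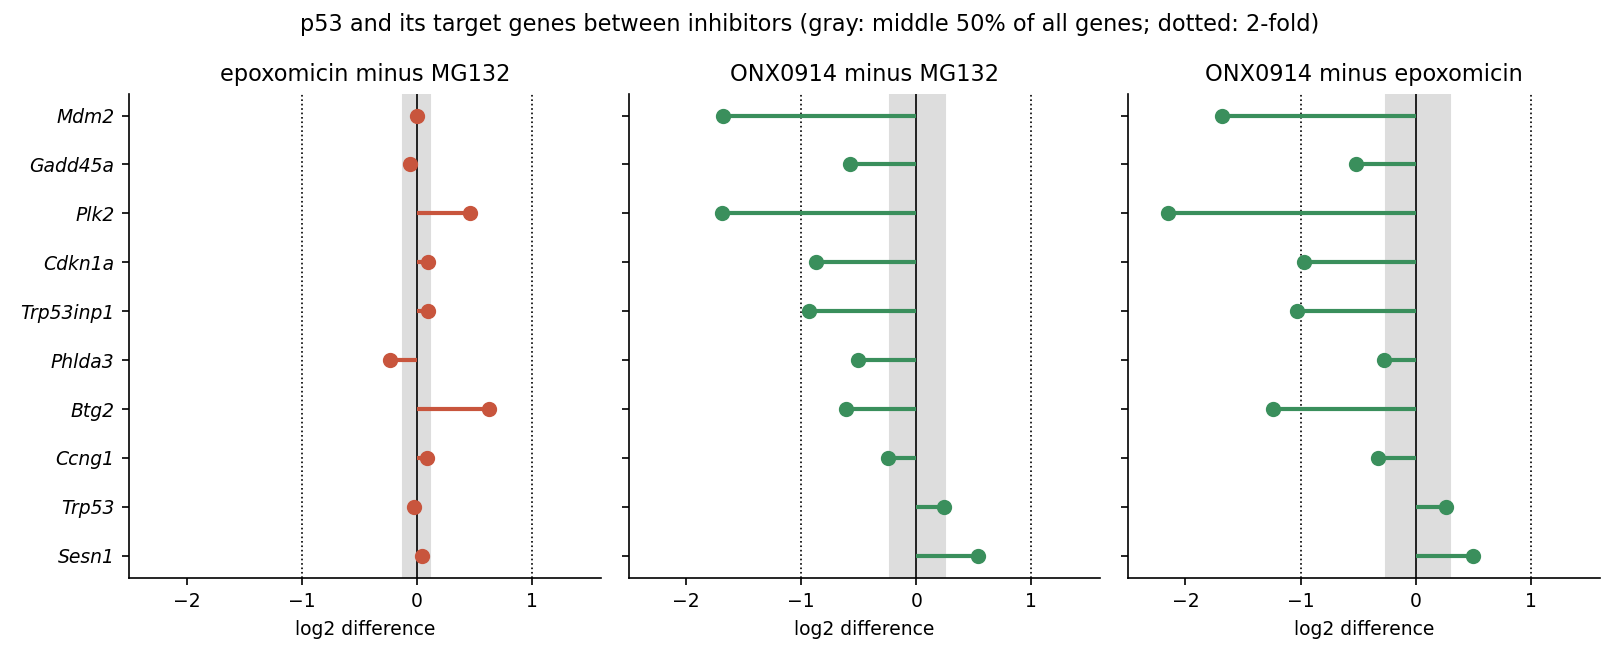
Log2 difference between each pair of inhibitors for p53 and its target genes, with dotted lines at 2-fold and a gray band over the middle 50% of all genes. *Plk2* and *Mdm2* lie beyond the line on the lower side in both panels with ONX0914, and no gene passes it between epoxomicin and MG132.

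Paralogs of the 10 genes did not all run with them. Of 18 paralogs, 17 were compared, as *Phlda2* was well above background on no array. At least 2-fold higher were 6 under MG132, 6 under epoxomicin and 4 under ONX0914, and 3 were lower with each. Over all genes, 7.24%, 8.41% and 3.27% were higher and 3.65%, 4.49% and 1.41% lower. The sestrin *Sesn2* was the clearest contrast, with a signal of 1317 under DMSO, 9239 under MG132, 11168 under epoxomicin and 7360 under ONX0914. Its log2 differences were 3.00, 3.06 and 2.52 in that order, where those of *Sesn1* were −1.90, −1.86 and −1.36. The third sestrin, *Sesn3*, lay at −0.35, −0.28 and −0.20.

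Within the Gadd45 family, *Gadd45g* was higher by 2.76, 3.15 and 2.12 under MG132, epoxomicin and ONX0914. *Gadd45b* was higher by 1.87 and 1.88 under MG132 and epoxomicin and lay at 0.84 under ONX0914. All 3 genes of the family lay above DMSO on every inhibitor array. Among relatives of *Plk2*, the kinase *Plk3* was higher by 1.42, 1.35 and 1.29, whereas *Plk1*, a kinase of mitotic cells, differed by −1.81, −1.70 and −1.14. *Plk4*, which acts in centriole duplication, lay at −0.60, −0.26 and −0.10. Of the relatives of *Phlda3* and *Trp53inp1*, *Phlda1* was higher by 2.25, 2.69 and 1.28, and *Trp53inp2* lay at −0.70, −0.54 and −0.42.

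*Mdm4*, a relative of *Mdm2* that restrains p53 without degrading it, was higher by 1.40 under MG132 and 1.44 under epoxomicin and lay at 0.42 under ONX0914. Its signals were 437 under DMSO, 1015 under MG132, 1209 under epoxomicin and 572 under ONX0914. The relatives of *Cdkn1a* lay below DMSO. *Cdkn1b*, which encodes the inhibitor p27, lay at −0.94, −0.96 and −0.58. *Cdkn1c* was faint, with a signal of 48.2 under DMSO and 23.2 under ONX0914 (a difference of −1.02), and was not well above background with MG132 or epoxomicin, where it was at least 1.25 and 1.27 lower on the log2 scale. *Ccng2*, the relative of *Ccng1*, was also faint, at 79.8 under DMSO, 25.2 under MG132, 37.4 under epoxomicin and 30.5 under ONX0914. Its differences were −1.48, −1.12 and −1.35, but with normexp without outlier spots −0.04, −0.35 and −0.35. In that setting *Cdkn1c* lay at −0.15, −0.15 and −0.29, so that neither was 2-fold lower with any inhibitor and *Plk1* was the one left of the 3 paralogs counted as lower.

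**Figure D5:**
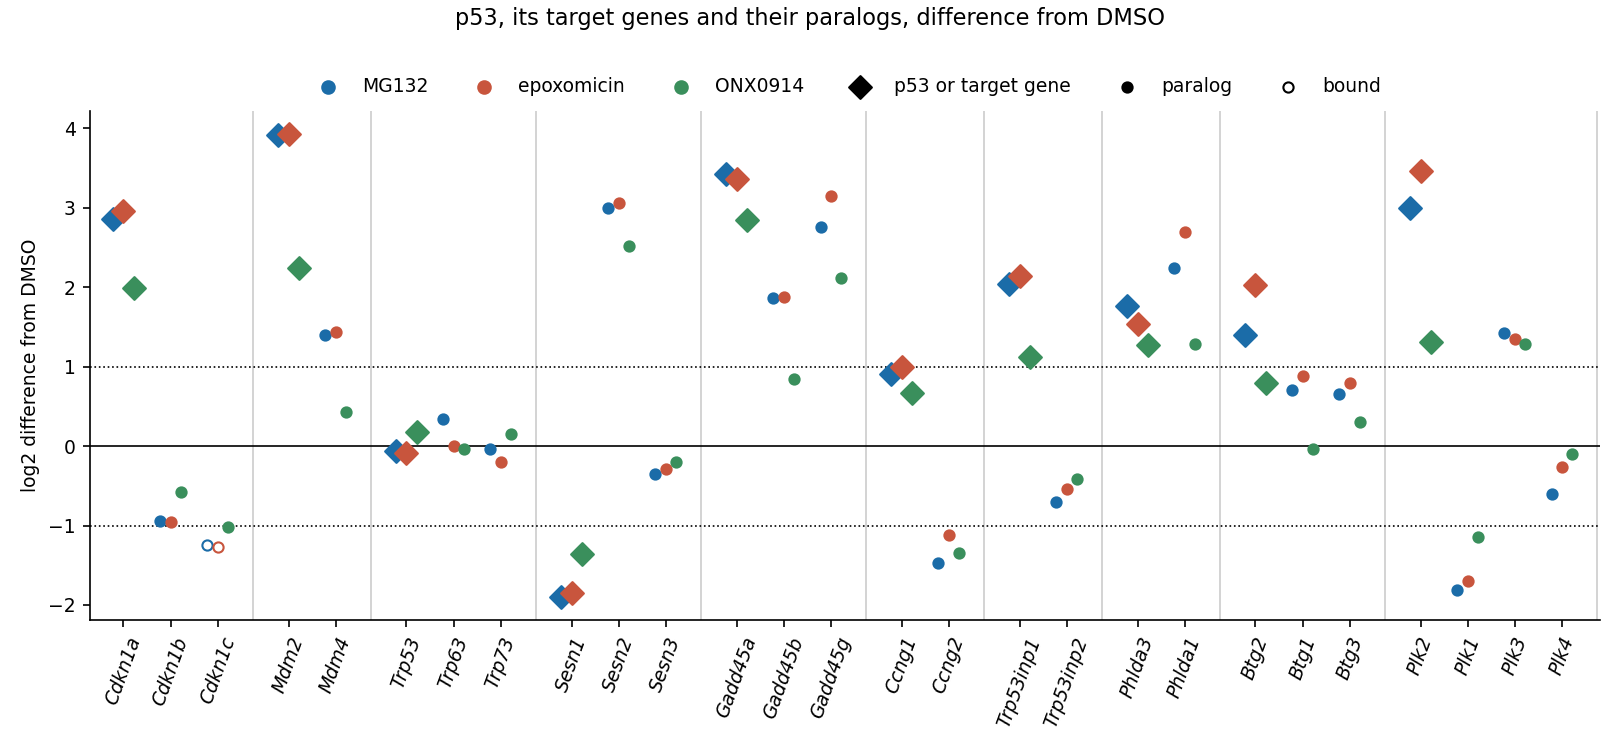
Log2 difference from DMSO of p53, its target genes and their paralogs, grouped by family, with a point for each inhibitor and open points for bounds. *Sesn2* lies above 2 and *Sesn1* below −1 with all inhibitors, and *Plk1* lies below DMSO where *Plk2* and *Plk3* lie above it.

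Other genes of the p53 pathway were counted for comparison. Of 12 death targets, 11 were compared (*Perp* was well above background on no array), and 5 were at least 2-fold higher and none lower with each inhibitor, where 7.24%, 8.41% and 3.27% of all genes were higher with MG132, epoxomicin and ONX0914. The same 5 genes passed with all inhibitors. *Bbc3*, which encodes the death protein Puma, was higher by 2.45, 2.39 and 1.69 under MG132, epoxomicin and ONX0914. *Pmaip1*, which encodes Noxa, was higher by 2.74, 2.78 and 1.29. The nuclease gene *Aen* was higher by 1.87, 1.82 and 1.00, the death receptor gene *Fas* by 1.35, 1.13 and 1.32, and *Zmat3*, which encodes an RNA-binding zinc finger protein, by 1.89, 1.92 and 1.03. With ONX0914, *Aen* fell below 2-fold in 5 of 10 alternative settings and *Zmat3* in 4, and the other probe of *Aen* gave 0.92. *Bax*, by contrast, lay at 0.65, 0.36 and 0.28.

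Of 16 regulators of p53, 14 were compared, as *Cdkn2a* was well above background on no array and *Rfwd2* had no named probe. Of these 14, 2 were higher under MG132, 3 under epoxomicin and 1 under ONX0914, and none was lower. Over all genes, 7.24%, 8.41% and 3.27% were higher and 3.65%, 4.49% and 1.41% lower. The medians of the 14 regulators were 0.15, 0.05 and −0.03. *Daxx*, which encodes a nuclear chaperone that binds p53 and Mdm2, was higher by 2.15, 2.23 and 1.62. *Pml*, at 1.57 and 1.92 under MG132 and epoxomicin, and *Rchy1*, at 1.00 under epoxomicin, made up the others and were named after their values were seen. A second *Pml* probe passed 2-fold with ONX0914 as well, at 1.06, where the main one lay at 0.74. Of 14 repair and metabolism targets, 2 were higher with MG132 and with epoxomicin and 1 with ONX0914, and none was lower, again beside 7.24%, 8.41% and 3.27% of all genes. The medians of these 14 targets were 0.04, −0.00 and −0.03, near those of all genes. *Polk*, a translesion DNA polymerase, was higher by 2.04, 2.17 and 1.36 (0.91 with ONX0914 on its other probe), and *Ercc5*, named after its values were seen, by 1.50 under MG132 and 1.35 under epoxomicin. Of 12 cell cycle genes that p53 represses through the DREAM complex, none was higher with any inhibitor. Lower were 2 with MG132, 1 with epoxomicin and 0 with ONX0914, against 3.65%, 4.49% and 1.41% of all genes. With MG132, *Ccnb1* (−1.50) and *Cdk1* (−1.11) were lower, and with epoxomicin *Ccnb1* was (−1.63), these also being named after their values were seen. Other probes of *Ccnb1* gave −1.04 and −0.90 with MG132, and those of *Cdk1* gave −1.23 and −0.61. The medians of these 12 genes were −0.48, −0.47 and −0.27 under MG132, epoxomicin and ONX0914.

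None of the 10 genes changed sign against DMSO in any of 10 alternative settings. The settings without bounds and with genes detected on all arrays could not change their values, as all 10 were well above background. Only *Ccng1* with epoxomicin (0.92 to 1.05) and *Trp53inp1* with ONX0914 (0.71 to 1.12) changed sides of the 2-fold threshold. Leaving the arrays unscaled moved the median of all genes with MG132 from −0.02 to −0.20, and *Mdm2* and *Sesn1* then stood at 3.74 and −2.08. Among all genes called, 66.5% were higher with MG132, but 45.0% without scaling and 54.8% after a shift to the median. With the normexp background correction over all spots the share was 15.7% with MG132, against 66.5%, with 15.8% against 65.2% with epoxomicin and 6.63% against 69.9% with ONX0914.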

How the data were processed

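RNA of J774 cells was measured on 4 single-color (Cy3) Agilent arrays, 1 per condition, on 1 slide. The Methods name a human array design, while the scanner file headers describe a mouse one. The authors deposited the output of Feature Extraction 10.7.1.1, in which the intensity of each spot had the background subtracted within the array but was not scaled between arrays, along with 0 or 1 calls for detection, saturation and outliers. They also deposited a log2 value table of 39483 entries with column medians between −0.05 and 0.02. Its correlation with scaled intensities centered on each probe was 0.9997 to 0.9999, which settles its direction but not its scale. For *Mdm2* with MG132, the difference from DMSO was 3.89 in that table and 3.92 in the scaled log2 intensities. The exact shift between arrays behind it was not given in the sources used here.

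From the intensities, control and outlier spots were left out, log2 values were shifted by the array's 75th percentile, and spots of a probe were averaged. Probes were named through their transcript accession and the RefSeq table of GRCm38.p6 (26581 of 39429), and no gene-name column was used here. The brightest probe stood for a gene. Comparisons took genes detected well above background on either array. A signal that was not so was replaced by the higher of itself and the lowest signal well above background, which gives a bound ("at least"), and no fold was given where the bound exceeded the other signal.

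The alternatives were normexp (offset 50, on median spot brightness, as the mean was not used here), also without outlier spots, quantile normalization, a median shift, a 75th percentile taken over detected probes alone, no scaling, the authors' table, the mean over all probes of a gene, no bounds, genes detected on all arrays and a 4-fold threshold. The number of arrays limits the precision. The 10 genes and the lists were chosen with earlier results of these data known. Named were all 10 genes, paralogs of those past 2-fold with all 3 inhibitors, list genes past 2-fold with all 3, and the 3 genes closest to *Cdkn1a* and *Sesn1*, apart from items not reported here. The calculations were tested on simulated data. They used Python 3.11.15, numpy 2.4.6, pandas 2.3.3, matplotlib 3.10.9, R 4.3.3 and limma 3.58.1.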

Additional observations from a re-analysis of the deposited data

How the results depend on the processing

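No paired analysis was possible because each condition had 1 array. No difference of the 10 genes from DMSO reversed in any alternative, and 62 of 300 single values moved by more than the spot spread of 0.0867. Leaving out bounds or keeping only genes detected on all arrays could not move any of them, as all were well above background throughout. The mean over probes could move only *Cdkn1a* and *Trp53inp1*, which had more than 1 probe. Values that could not move are among the 300. The median of the 10 genes with MG132 (1.91) was 1.71 with the mean over probes, 1.72 without scaling, 1.76 with normexp on all spots and 1.81 with normexp without outlier spots and with a shift to the median. With epoxomicin (2.09) it was 1.86 with the mean over probes, 1.70 with normexp on all spots and 1.85 without outlier spots, and with ONX0914 (1.19) it was 1.09 with the mean over probes and 0.97 with normexp on all spots. At a 4-fold threshold 5 genes passed with MG132, 6 with epoxomicin and 2 with ONX0914, against 8, 8 and 7 at 2-fold. Over all genes at 4-fold, 270 of 13768 were higher and 48 lower with MG132. With epoxomicin 335 of 13869 were higher and 60 lower, and with ONX0914 114 of 13792 and 20. Between ONX0914 and MG132 the 4-fold threshold left 0 of the 10 genes and between ONX0914 and epoxomicin 1, in place of 2 and 4. Over all genes, 14 of 13704 were higher and 62 lower in the former, and 15 of 13791 and 117 in the latter. With normexp on all spots *Gadd45a* lay at 2.66, 2.62 and 2.10 and *Btg2* with ONX0914 at 0.41, and without outlier spots at 3.11, 3.07 and 2.55 and at 0.61. The faint genes *Ccng2* and *Cdkn1c* depended on the setting. With normexp without outlier spots *Ccng2* lay at −0.04, −0.35 and −0.35 and *Cdkn1c* at −0.15, −0.15 and −0.29 with MG132, epoxomicin and ONX0914. No other setting in which they were compared, normexp on all spots included, moved either gene across 2-fold. Whether the offset of normexp or the background lay behind this was not tested. *Aen*, *Zmat3* and *Polk* with ONX0914, *Mdm4* and *Ercc5* with MG132 and epoxomicin, *Rchy1* with epoxomicin, *Cdk1* and *Mertk* with MG132, *Lyz2* with epoxomicin and *Plk1* with ONX0914 fell below 2-fold in at least 1 setting. Over all genes, normexp on all spots counted 2522, 3025 and 2704 genes lower with MG132, epoxomicin and ONX0914, against 503, 623 and 194, and normexp without outlier spots counted 283, 378 and 74. Genes higher were 470, 568 and 192 with all spots and 601, 695 and 214 without outlier spots, against 997, 1166 and 451. Without scaling, 903 genes were lower with MG132. With ONX0914, 358 were lower in the authors' table, 348 without bounds and 102 (with 289 higher) among genes detected on all arrays. Counts over all genes at 4-fold are given above. Apart from that threshold, genes higher and lower numbered 7 to 194 and 23 to 173 between epoxomicin and MG132 (107 and 98 as reported), 22 to 296 and 170 to 531 between ONX0914 and MG132 (147 and 418), and 59 to 377 and 300 to 763 between ONX0914 and epoxomicin (215 and 604). Of genes called between ONX0914 and MG132, 26.0% were higher with ONX0914, against 44.7% without scaling, 37.8% after a shift to the median and 11.5% with normexp. Of those between epoxomicin and MG132, 52.2% were higher, against 72.0% without scaling and 23.3% with normexp. The cause was not tested.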
